A study of Mus musculus with 3 samples.

Results

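The common gamma chain family is the set of cytokines and receptors built around the receptor chain Il2rg. The 10 members described here are the ligands Il2 and Il4, the shared chain Il2rg, the partner chains Il2rb, Il4ra, Il7r, Il21r and Il9r, and the alpha chains Il2ra and Il15ra. They were taken by name from the 50600 genes of the deposited tables, of which 21764 are protein-coding. RNA was measured by sequencing in 3 libraries, numbered as biological replicates 1, 2 and 3, of mouse cells labelled as T-helper 1 (Th1), primary cells of strain C57BL/6NJ. Th1 is the class of CD4 helper T cell known for producing interferon-gamma. The markers of T cells were present here, but those of Th1 went partly against the label. Ifng, which encodes that cytokine, had 1, 2 and 0 counts, and Cxcr3 had 6, 2 and 2. The other 4 of 6 Th1 markers reached the level set below. Marker counts carry the limit of the strand setting given below for the members. The labels name no treatment or second group and link a protocol of CD4 T cell differentiation. The assay is labelled as total RNA-seq, but the library protocol linked to it is named for poly(A)+ RNA. The file headers add a time of 2 hours that the labels lack. The libraries share 1 donor entry, so spread between them may be partly technical. Total counts lay between 2950658 and 4442901 read pairs per library.

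These cytokines signal through receptors that share Il2rg, which recruits the kinase JAK3, while the partner chains recruit JAK1 and fix which STAT factors are activated. Il2ra and Il15ra raise the affinity of the receptors for interleukin-2 (IL-2) and interleukin-15. T cells make IL-2 soon after antigen receptor stimulation, through NFAT, AP-1 and NF-kB at the Il2 promoter, and IL-2 in turn raises Il2ra. Resting T cells rely on interleukin-7 through Il7r.

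A pair of promoters is printed because both ligands are known NFAT targets, and their counts differed widely. The sequences are the 250 bases before the gene's start, from RefSeq on GRCm38.p6, on the strand of the gene, and capitals mark GGAAA on either strand, the core bound by NFAT. Both lie on the minus strand, Il2 at chr3:37125955-37126204 and Il4 at chr11:53618666-53618915.
Il2: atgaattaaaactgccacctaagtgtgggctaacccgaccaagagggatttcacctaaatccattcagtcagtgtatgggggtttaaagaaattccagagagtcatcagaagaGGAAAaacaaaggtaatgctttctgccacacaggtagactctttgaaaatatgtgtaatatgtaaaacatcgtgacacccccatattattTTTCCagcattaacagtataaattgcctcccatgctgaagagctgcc
Il4: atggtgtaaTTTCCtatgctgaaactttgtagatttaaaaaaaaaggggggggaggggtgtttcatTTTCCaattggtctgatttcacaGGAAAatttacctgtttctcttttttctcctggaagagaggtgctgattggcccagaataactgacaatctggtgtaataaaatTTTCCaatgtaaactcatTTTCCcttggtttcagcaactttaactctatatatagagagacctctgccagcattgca

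The Il2 window held 2 such cores, which begin 137 and 47 bases before the start, and the Il4 window held 5. RefSeq gives Il4 a second start further inside the gene, and the window before that one held 0. Among 32851 promoter windows of this length, 55.6% had at least 1 core, 21.4% had 2 or more and 0.39% had 5 or more. Neither window held TGANTCA, a common form of the AP-1 site, or TTCNNNGAA, a STAT site, searched on both strands with N as any base. Sites with other letters, or further from the start, were not searched for. Those letters were found in 6.75% and 7.02% of all windows. Of the 10 members 9 had a RefSeq window, all but Il2rb. A STAT match lay 142 bases before the start of Il7r, and an AP-1 match 30 bases before the second of 2 starts of Il15ra. Il21r and Il9r had no match to any of the 3 motifs. Such matches describe letters and do not show binding.

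Levels are given in TPM, the count per base of exon scaled to the same sum over all genes in each library. Of the 10 members, 8 reached 1 TPM in every library, where 38.7% of protein-coding genes did. The 7 members from Il21r down to Il2rb also reached 5 TPM in every library, where 24.9% of protein-coding genes did. Over the exon lengths in the files, Il21r stood highest at 148 ± 59.03 TPM (SD, n = 3), followed by Il2rg at 113 ± 53.8, Il4ra at 78.1 ± 37.8, Il2ra at 44.5 ± 21.1, Il7r at 32.9 ± 12.2, Il2 at 28.6 ± 18.7, Il2rb at 16.8 ± 9.69 and Il15ra at 3.12 ± 1.43 TPM. The places of Il21r and Il2rg in this order depend on the length taken for Il2rg, as given below. Il4 and Il9r did not reach 1 TPM in every library. Il4 did so with the TPM total taken over genes with no exon opposed by a gene of the other strand, at 5.71, 2.20 and 11.0 TPM, where 46% of protein-coding genes did, and without replicate 2, where 40.2% did. In such bulk RNA, fewer cells with a transcript and less of it per cell cannot be told apart. The counting used strand setting 1, so that the strand of the first read decides which of 2 opposed genes a pair can count for. Which setting the library needed is not given in the sources used here. If it was the opposite one, most reads of a member would be missing from its count, and neither the levels nor the limits below would be those of its RNA. Genes with an exon opposed by a gene of the other strand form 16.2% of the 50600. Their share of the counted pairs was 55.1% in replicate 1, 69.1% in replicate 2 and 67.3% in replicate 3. How far the strand setting shaped these shares was not tested.

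**Figure D1:**
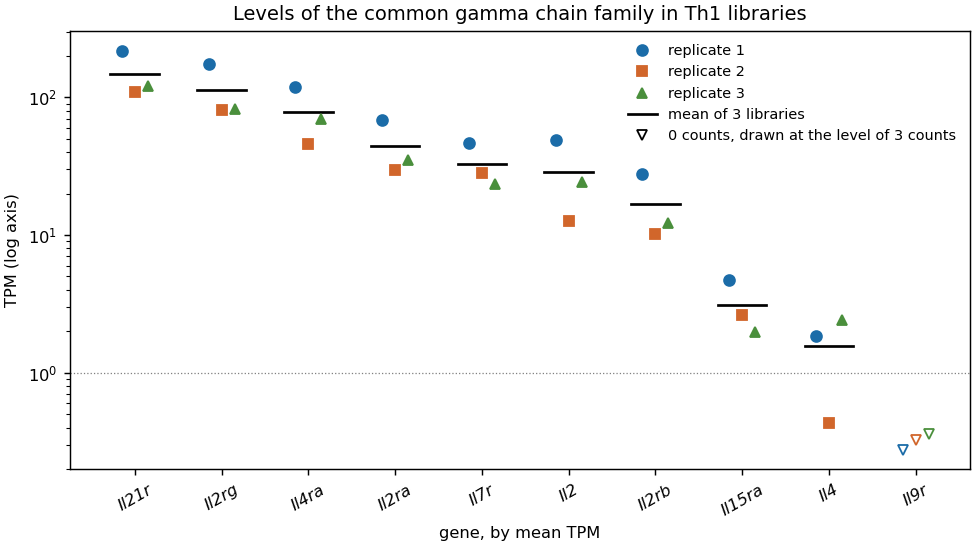
TPM on a log axis for the 10 members, ordered by mean, with a point per library and a line at the mean. Replicate 1 is the highest point in all 8 members above the dotted line at 1 TPM, and Il9r, with 0 counts, is drawn at the level that 3 counts would give.

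The T cell growth factor Il2 was present and variable. Il2 (ENSMUSG00000027720.7) had 123, 27 and 47 counts in replicates 1, 2 and 3, or 49.1, 12.6 and 24.2 TPM. Replicate 1 was thus highest and replicate 2 lowest, and without replicate 1 the mean was 18.4 TPM, against 28.6 TPM with all 3. The gene lies on chromosome 3 from 37120523 to 37125959 (mm10, minus strand). Its span, but none of its exons, overlaps the end of Adad1, a testis gene of the other strand, which had 197, 265 and 85 counts and was named after its values were seen.

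Il4, the cytokine that directs Th2 cells, was near the limit of detection. Il4 (ENSMUSG00000000869.12; chromosome 11, 53602982 to 53618669, minus strand) had 5, 1 and 5 counts, or 1.86, 0.434 and 2.4 TPM, where 3 counts would equal 1.12, 1.3 and 1.44 TPM. Only replicate 2 fell at or under that limit. Summed over the libraries, Il2 had 197 counts and Il4 11, a ratio of 19.2 per exon base (95% exact interval 10.5 to 39.1). Such intervals and limits cover counting error only.

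Il2rg (ENSMUSG00000031304.18), the chain that all these receptors share, had 913, 362 and 333 counts, or 175, 80.8 and 82.2 TPM. Replicate 1 stood apart and replicates 2 and 3 were close. The gene lies on chromosome X from 101264378 to 101268255 (minus strand). Of its 2387 exon bases, 728 (30.5%) also lie in exons of Gm20489, a gene model of wider span on the same strand that was named after its values were seen. By default featureCounts counts a pair inside exons of 2 genes for neither, and Gm20489 had 0 counts in every library. Over the 1659 bases that are not shared, Il2rg stood at 162 ± 77.5 TPM (SD, n = 3), an estimate added after its values were seen.

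Among the partner chains, Il21r (ENSMUSG00000030745.9), the interleukin-21 receptor, led with 1573, 676 and 681 counts, or 216, 108 and 121 TPM. Il4ra (ENSMUSG00000030748.9), the chain that binds interleukin-4, had 1572, 515 and 703 counts, or 120, 45.7 and 69.0 TPM. Both were highest in replicate 1 and lowest in replicate 2. Il7r (ENSMUSG00000003882.4; chromosome 15, 9506161 to 9529876, minus strand), the interleukin-7 receptor alpha chain, had 328, 171 and 128 counts, or 46.7, 28.4 and 23.5 TPM, with replicate 3 lowest. Il2rb (ENSMUSG00000068227.8; chromosome 15, 78480553 to 78495066, minus strand), the signalling partner for IL-2 and interleukin-15, was the lowest detected partner chain, with 170, 53 and 58 counts, or 27.9, 10.1 and 12.3 TPM. Il9r (ENSMUSG00000020279.10; chromosome 11, 32187541 to 32200279, minus strand), the interleukin-9 receptor, had no count in any library, which allows up to 0.277, 0.323 and 0.357 TPM in replicates 1, 2 and 3. Against that limit Il9r lay at least 230.0-fold below Il2rg in each library, taken at 3 counts per library.

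The alpha chains differed widely, although the genes are neighbours. Il2ra (ENSMUSG00000026770.5), the inducible chain of the high-affinity IL-2 receptor, had 859, 318 and 341 counts, or 68.7, 29.7 and 35.2 TPM. Il15ra (ENSMUSG00000023206.16), which presents interleukin-15, had 46, 22 and 15 counts, or 4.73, 2.64 and 1.99 TPM. The levels of Il2ra and Il15ra did not overlap. Both genes lie on the plus strand of chromosome 2, Il2ra from 11642807 to 11693193 and Il15ra from 11705290 to 11734317, with 12.1 kb and no annotated gene between them. Il4ra and Il21r form a second such pair on the plus strand of chromosome 7, from 125552120 to 125579474 and from 125603429 to 125633570, with 24 kb and no annotated gene between them.

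Ratios between members were taken within each library. Of the summed TPM of the 8 receptor chains, Il21r made up 34.4% ± 1.4 (SD, n = 3), Il2rg 25.6% ± 1.53, Il4ra 17.7% ± 2.56, Il2ra 10.1% ± 0.372, Il7r 7.73% ± 1.36, Il2rb 3.7% ± 0.476 and Il15ra 0.719% ± 0.143. The sum lay between 306 and 659 TPM. Over the unshared bases of Il2rg, added after its values were seen, Il2rg made up 33.1% ± 1.78 and Il21r 30.9% ± 1.34, with Il2rg ahead in replicates 1 and 2 only. On the log2 scale of TPM + 0.1, Il2ra exceeded Il2rb by 1.45 ± 0.13 (SD, n = 3) and lay below Il2rg at -1.34 ± 0.11. Without length correction the difference from Il2rg was -0.08 ± 0.11, and Il2ra was then above Il2rg in replicate 3. Il2rb lay below Il2rg at -2.79 ± 0.18, so that Il2rb had the lowest TPM of the 3 chains of the high-affinity IL-2 receptor. Its summed ratio to Il2rg per exon base was 0.150 (95% exact interval 0.131 to 0.170). Il15ra lay below Il2ra at -3.79 ± 0.32.

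Among the other partner chains, Il7r lay below Il2rg at -1.74 ± 0.21 and below Il2ra at -0.40 ± 0.29. The Il7r to Il2ra difference was close to 0 in replicate 2, at -0.06, against -0.56 and -0.58 in replicates 1 and 3. Il4ra lay below Il2rg at -0.54 ± 0.28, and without length correction this turned to 0.79. Il21r lay above Il2rg at 0.43 ± 0.12, but at -0.10 over the unshared bases of Il2rg. Il2 exceeded Il4 by 4.17 ± 0.77. All 9 ratios had 1 sign in every library. An exact sign-flip test, two-sided, gave p = 0.25 for each, also after Benjamini-Hochberg adjustment over the 9, and with n = 3 it cannot give less.

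**Figure D2:**
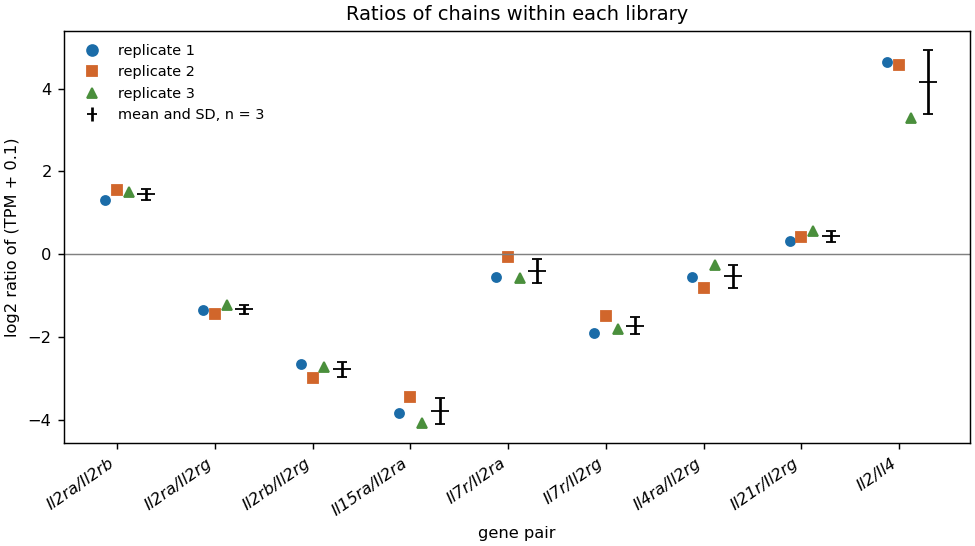
Log2 ratios of TPM + 0.1 for 9 pairs of members, with a point per library and the mean and SD beside them. Il2ra lies above Il2rb and below Il2rg in each library, and Il2 lies far above Il4, with replicate 3 the lowest point of that pair at 3.28.

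In the order of mean levels, 7 of 9 neighbouring members kept their order in every library. Il7r and Il2 did not, with log2 differences of -0.07, 1.17 and -0.04 in replicates 1, 2 and 3. Nor did Il15ra and Il4, at 1.30, 2.36 and -0.26. The adjusted p over 8 such steps was 1 for Il7r and Il2 and 0.571 for Il15ra and Il4 in the exact sign-flip test. The step from Il4 to Il9r set 5, 1 and 5 counts against 0. Il21r and Il2rg differed by 0.31 to 0.55, and over the unshared bases of Il2rg their order did not hold in every library.

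Il4ra is the only member with an exon opposite an exon of another gene. That gene, Gm44876, an antisense RNA gene (chromosome 7, 125570776 to 125572117), shares 571 bases with Il4ra, 9.51% of the exon bases of Il4ra and 85.2% of its own. Only 44 of those bases lie in an exon of the protein-coding transcript of Il4ra used here, and the rest lie in other exons annotated for Il4ra. The coding part is the end of exon 7 of that transcript, printed here from GENCODE vM21 transcripts, since pairs at this place are told apart by strand alone. It lies at chr7:125571434-125571590 on the plus strand, and capitals mark the 44 bases that also lie in an exon of Gm44876.
Il4ra exon 7: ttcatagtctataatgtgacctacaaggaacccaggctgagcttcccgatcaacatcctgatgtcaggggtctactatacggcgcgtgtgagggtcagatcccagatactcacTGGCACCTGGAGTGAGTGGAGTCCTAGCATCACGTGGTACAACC

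Il4ra had 1572, 515 and 703 counts over 6002 exon bases, whereas Gm44876 had 2368, 2399 and 2301 over 670. Per exon base Gm44876 exceeded Il4ra 13.5-fold, 41.7-fold and 29.3-fold in replicates 1, 2 and 3. Scaled for depth, Gm44876 stood at 1615, 1909 and 2023 TPM, lowest in replicate 1, where Il4ra was highest. On the mitochondrial genome, where strands are also told apart by the same setting, the only mRNA of its strand, mt-Nd6, stood 18.9-fold to 57.8-fold above the median detected mRNA of the opposite strand, per base. The part of the strand setting in the levels of Il4ra and Gm44876 was not tested.

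**Figure D3:**
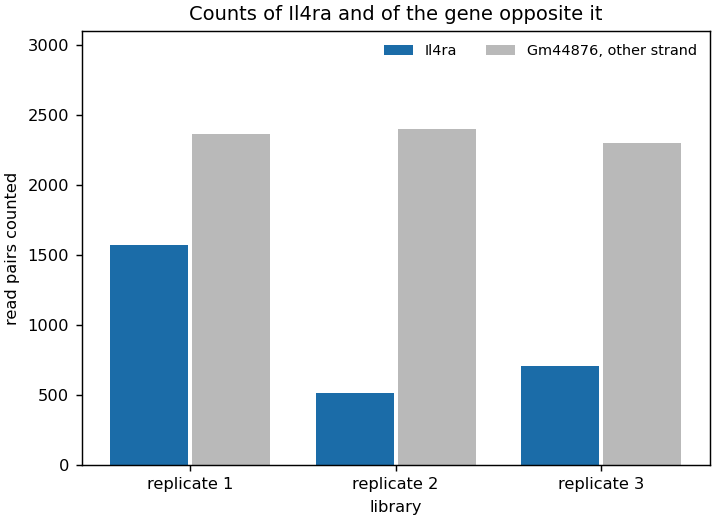
Read pairs counted for Il4ra and for Gm44876, the gene on the other strand, in each library, not scaled for depth. Gm44876 has between 2301 and 2399 counts in all 3 libraries and Il4ra between 515 and 1572, the highest in replicate 1.

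All 8 detected members were highest in replicate 1, where 80% of protein-coding genes at 1 TPM were, 87.8% of those with no exon opposed and 65.3% of those with one. The same 8 were highest there in CPM, the count scaled by the library total, where 71.1% of those genes were, 79.9% of those with no exon opposed and 54.4% of those with one. Replicate 1 exceeded the mean of replicates 2 and 3 2.67-fold for Il2, 2.49-fold for Il2rb, 2.14-fold for Il2rg, 2.12-fold for Il2ra and 1.8-fold for Il7r. The median over genes with no exon opposed was 1.77-fold. Genes that overlap no gene of the other strand held 38.7% of counts in replicate 1, against 25.6% and 27.8% in replicates 2 and 3. With TPM scaled to the genes with no exon opposed, a setting used for this count after the data were seen, 7 of the 8 were highest in replicate 1. So were 44.6% of protein-coding genes, 51.7% of those with no exon opposed and 31.4% of those with one. The excess in replicate 1 was then 1.72-fold for Il2 and 1.14-fold for Il7r, against a median of 1.13-fold over genes with no exon opposed.

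**Figure D4:**
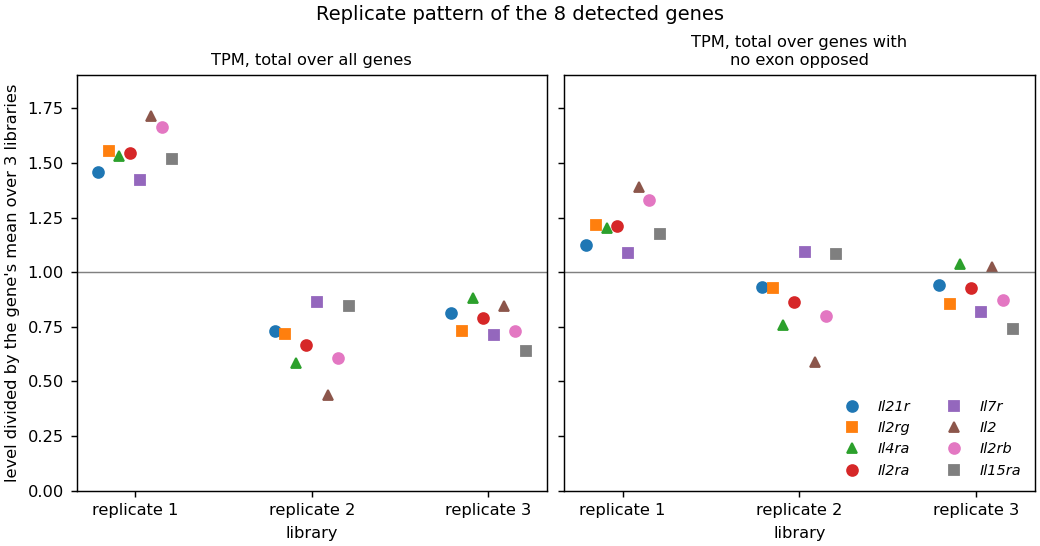
Each member's TPM divided by its mean over the 3 libraries, with the TPM total taken over all genes (left) or over genes with no exon opposed (right). Replicate 1 lies above 1 for all 8 members on the left, and on the right Il7r is slightly higher in replicate 2 while Il2 keeps the widest spread.

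The 8 detected members passed the filter on low counts, and Il4 and Il9r did not. In a chi-square test against counting noise, 7 of the 8 varied between libraries at an adjusted p under 0.05 (Benjamini-Hochberg over 9469 genes), where 59.6% of all genes tested did. The exception was Il15ra, at an adjusted p of 0.342 in that chi-square test. Among genes with no exon opposed, refitted alone, 3 of 7 members passed, Il2 (adjusted p = 0.00652 in the chi-square test), Il2rg (0.0053) and Il2ra (0.0078), beside 37.8% of those genes. Without replicate 1, 2 of the 8 passed, Il4ra and Il2, beside 25.6% of all genes tested. Without replicate 2, 6 passed, beside 42.4% of genes, and Il2 did not (adjusted p = 0.128, chi-square test). Without replicate 3, 6 passed, beside 47.3%, and Il7r did not (adjusted p = 0.887, chi-square test).

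No member passed the test for spread beyond that of genes of its level. In edgeR's fit, tested as the deviance at the trended dispersion, 0 of the 8 passed, beside 0.253% of all genes, and 0 had an unadjusted p under 0.05. Among genes with no exon opposed it was 0 of 7, beside 1.71% of those genes. DESeq2 marked none of the 8 as a dispersion outlier. Il2 came nearest, at an unadjusted p of 0.147 (edgeR, adjusted p = 0.988). Its CV over the libraries was 65.2%, against 37.2% for Il7r, the lowest of the 8.

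Most genes around the receptors in the pathway were detected. Of 83 genes in 6 lists, 68 reached 1 TPM in every library, against 38.7% of protein-coding genes. All 14 signal transducers did, with a median of 15.7 TPM over their means. They were led by Stat6, the interleukin-4 signal transducer, at 159 ± 51.3 TPM (SD, n = 3), the kinase Jak1 at 128 ± 47.8 and Stat5b, which transmits IL-2 signals, at 45.5 ± 15.1, and Irs2, an adaptor of interleukin-4 signals, was lowest at 1.89 ± 1.13. Jak3, the kinase of the shared chain, chosen after its values were seen, had 214, 86 and 88 counts, or 12.2 ± 5.31 TPM. Stat6, Jak1 and Irs2 are opposed by an exon of another gene.

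Inhibitors of these signals were also present, at 8 of 9. Ptpn6, the phosphatase SHP-1, had 158 ± 65.3 TPM and is opposed, the phosphatase gene Dusp5 had 93.7 ± 37.8 and Socs1, a suppressor of JAK kinases, 61.3 ± 29.7 (SD, n = 3). Its relative Socs2 had 0, 1 and 0 counts. Of 15 genes known to be induced by IL-2 and STAT5, 13 reached 1 TPM. Myc had 382 ± 144 TPM, the survival factor Mcl1 169.6 ± 72.9 and the cytokine Lta 147 ± 41.7, while Gzmb, the protease of killer cells, had no count. Many of these genes have other inducers too, and no unstimulated cells were measured here.

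All 15 transcription factors known to act on Il2 reached 1 TPM. Junb, an AP-1 subunit, had 312 ± 109 TPM (SD, n = 3) and is opposed, Nfkb1 had 228 ± 67.2 and Egr1 214 ± 67.3. Nfatc2, a T cell NFAT protein, was lowest at 2.75 ± 0.159. Of 6 other ligands that bind receptors with Il2rg, Il4ra or Il7r, only Il21 was detected. Il21 had 31, 27 and 13 counts, or 2.3 ± 0.727 TPM, and is opposed by another gene, while Il7, Il9, Il15, Il13 and Tslp had none.

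Other cytokine receptor chains reached 1 TPM for 17 of 24. The highest were Il27ra, the interleukin-27 receptor, at 32.4 ± 13.3 TPM (SD, n = 3) and opposed by an exon of another gene, and the interferon-gamma receptor chains Ifngr1 and Ifngr2 at 28.2 ± 13.5 and 27.6 ± 14.1 TPM. Csf2rb had no count. Il21r, Il2rg, Il4ra and Il2ra each had a higher mean than all 24 of these chains, and Il7r stood beside Il27ra.

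**Figure D5:**
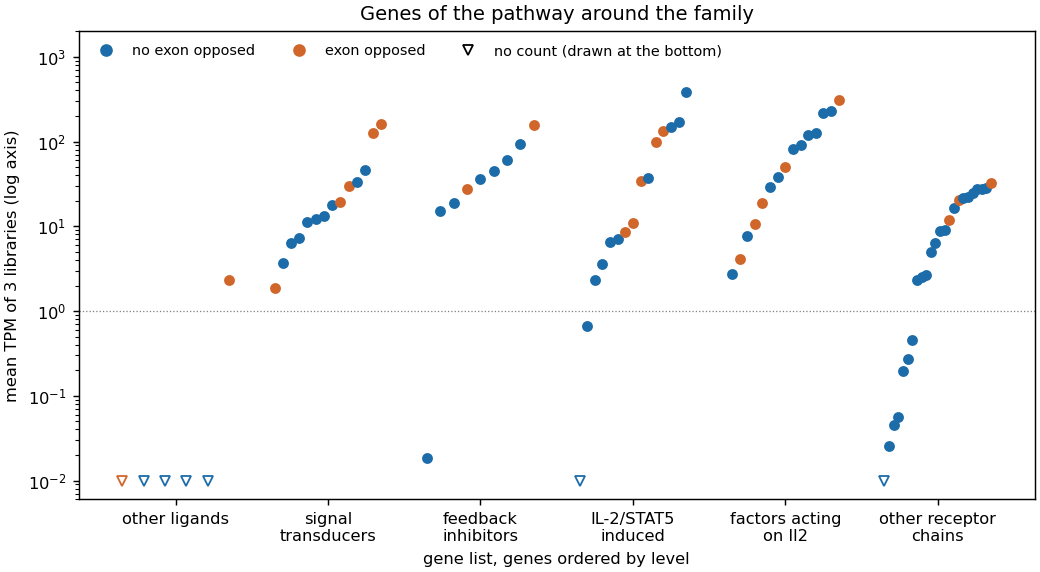
Mean TPM of 3 libraries on a log axis for the 83 genes of 6 lists, coloured by whether an exon is opposed by a gene of the other strand. All genes of the signal transducer list and of the list of factors acting on Il2 lie above the dotted line at 1 TPM, and 5 of 6 other ligands have no count.

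By level and replicate pattern, the protein-coding genes with no exon opposed that lay nearest to 7 of the detected members were genes of varied kinds. Nearest to Il2 were Atp5e and Ube2a, at distances of 0.132 in log2(TPM + 0.1) over the 3 libraries. Snrpb lay 0.054 from Il4ra, Cab39 0.0644 from Il2ra, Uprt 0.0812 from Il15ra, Ly9 0.0821 from Il7r, Magoh 0.103 from Il21r and Actr3 0.108 from Il2rg. With 16960 candidates and 3 libraries, such likeness is a description of these libraries.

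The label was set against markers, whose counts carry the limit of the strand setting given above for the members. All 8 T cell markers and Cd4 reached 1 TPM, Cd4 at 107 ± 29.3 TPM (SD, n = 3). Of 6 Th1 markers 4 did. Stat4 stood at 15.9 ± 6.49 TPM, Il18r1 at 4.98 ± 1.09 and Tbx21 at 2.53 ± 0.997. Il12rb2, which is opposed by an exon, stood at 11.9 ± 3.97 TPM. Cxcr3 was under 1 TPM in replicates 2 and 3, and Ifng, the defining cytokine, had 1, 2 and 0 counts. Markers of other cells were mixed. The 3 NK cell markers had no count, nor did Mcpt8, Fcer1a and Ms4a2 of mast cells and basophils, Ms4a1 and Cd22 of B cells or Lyz2 and Itgax of macrophages and dendritic cells. Cd79a of B cells had 36.4 ± 11.1 TPM and Csf1r of macrophages 158 ± 25.3 TPM, the second opposed by an exon. Cd68 had 7.23 ± 1.39, Cpa3 of mast cells 3.4 ± 0.603 and Cd8b1 6.73 ± 3.36 TPM, and Adgre1 and Cd8a had 3 counts or fewer in all. Foxp3 of regulatory T cells, which carry Il2ra, had 59.6 ± 6.85 TPM and is opposed, Ctla4 had 10.9 ± 6.56 and Ikzf2 0.256 ± 0.0967. The summed level of these 3 was between 63.4 and 74.9 TPM, and their part in the level of Il2ra was not tested.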

How the data were processed

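The authors deposited whole-number counts per gene, 1 file per library. Per the file headers, the run was stranded and paired-end, its alignment step was called star2, and pairs were counted over exons with featureCounts 1.4.6-p4 (both ends aligned, strand setting 1, GENCODE vM13), on mm10 per the labels. Names and biotypes came from GENCODE vM21, the same assembly, matched by identifier (50376 of 50600 genes). TPM and CPM were computed here from the deposited counts. Exon overlap between strands used bedtools 2.31.1 and the files' coordinates. Spread between replicates was tested in edgeR 4.0.16 under R 4.3.3 (TMM, intercept only, filterByExpr at a minimum count of 10, 9469 genes) by a chi-square test of counting noise and by the deviance at the trended dispersion, with 2 degrees of freedom and Benjamini-Hochberg adjustment at 0.05. DESeq2 1.42.0 was the alternative tool. Both tests were checked on simulated counts, drawn with the spread that each test assumes. The size of change that they would find in these libraries is not given here. Named pathway genes are the 3 highest and the lowest of each list by mean TPM. Members, lists and tests were chosen with earlier results of these data known. The data hold 1 group, so nothing was compared between groups. The p-values of the chi-square and deviance tests measure only the spread between these 3 samples. Those of the sign-flip test concern the mean log2 ratio of a pair of genes within these 3 samples. The gene nearest to Il2rb in level and 1 B cell marker are not reported here.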

Additional observations from a re-analysis of the deposited data

How the results depend on the processing

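No paired analysis was possible because the series holds 1 group. Of 152 alternative values, 86 for ratios, order and counts and 37 for single levels stayed within the limits set, 9 and 18 moved, and 2 turned round. Those 2 are the log2 ratio of Il4ra to Il2rg, 0.79 in CPM without length correction, and that of Il21r to Il2rg, -0.10 with the exon bases of Il2rg that Gm20489 shares left out, both from the lengths used. A single level moved if it shifted by its SD over the libraries or more, which leaving out 1 replicate cannot do. Nor can it turn round a ratio that has 1 sign in every library, so the outcome of those values was fixed in advance. The number of genes beyond counting noise, 5642, was 1992 among genes with no exon opposed, where 5276 genes were tested. Leaving out 1 replicate gave 2476 to 4815, lowest without replicate 1, and the cause was not tested. Members beyond counting noise numbered 7, then 3 among genes with no exon opposed, where Il4ra is not tested, and 2 to 6 with 1 replicate left out. Genes beyond the dispersion trend numbered 24, then 44 with every gene that had a count, 90 among genes with no exon opposed, 4 in DESeq2 and 3 to 21 with 1 replicate left out, and the cause was not tested. No member was among them in the edgeR and DESeq2 settings named here. With the TPM total taken over genes with no exon opposed, levels rose by 1 factor within each library, Il21r to 589 TPM and Il2 to 108 TPM, by construction. Whether Il4 and Il9r were absent or low could not be told from these counts. The parts of depth and of the strand setting in this were not tested.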
